A study of Homo sapiens with 6 samples.

Results

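The genes examined here are 9 genes of the GABAergic lineage: the homeobox genes DLX1, DLX2, DLX5 and DLX6, the transcription factor genes NKX2-1 and LHX6, and the genes for making and packaging GABA, which are GAD1, GAD2 and SLC32A1. Peaks were taken for each gene from the GRCh38 gene interval extended by 20 kb on either side, called its window. In all, 70 of the 78694 H3K27ac peaks and 23 of the 43677 CTCF peaks overlapped a window of these 9 genes, out of 20033 protein-coding genes. DLX1 and DLX2 share most of their peaks, as do DLX5 and DLX6, so the 9 genes form 7 loci.

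The cells were neurons that had been grown from neural progenitors under a published protocol based on the BrainPhys medium. The parent line, KOLF2.1J, is an established line of human induced pluripotent stem cells. ChIP-seq, which sequences the DNA that an antibody pulls down with its target, gave 2 CTCF libraries and 2 H3K27ac libraries beside 2 input libraries. No treatment or genotype distinguished the groups. The wider study searched for regulatory elements of MAPT. All samples come from 1 cell line, and the labels give neither the day of differentiation nor the share of inhibitory neurons in the culture. Each antibody has 1 peak list for both libraries, so values of single libraries, their spread and their read depth are unknown, and no test between samples was possible. A culture holds many cells, and fewer cells with a mark cannot be told apart from less of the mark in each cell.

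DLX genes encode homeodomain transcription factors that are expressed as ventral forebrain progenitors become GABAergic neurons. They lie in convergently transcribed pairs, and the stretch between the genes of a pair is known to hold forebrain enhancers. NKX2-1 specifies the medial ganglionic eminence, the part of the ventral forebrain from which many cortical interneurons arise, and LHX6 acts after it in those interneurons. GAD1 and GAD2 encode the glutamate decarboxylases that make GABA, and SLC32A1 encodes the transporter that loads it into synaptic vesicles. Acetylation of lysine 27 on histone H3, written H3K27ac, marks active promoters and enhancers, and CTCF binds DNA where chromatin loops are anchored.

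H3K27ac was listed at 8 of the 9 genes, in many peaks of modest height, while LHX6 had no peak of either list in its window. The windows of DLX1, DLX2, DLX5, DLX6 and NKX2-1 held 21, 17, 15, 16 and 16 H3K27ac peaks, against a median of 3 over all protein-coding genes. GAD1 had 7, GAD2 had 5 and SLC32A1 had 5. The count of genes with a peak, 8 of 9, is close to the background, since 81.1% of all protein-coding genes had an H3K27ac peak in such a window. Within the gene interval alone the count was also 8 of 9, against 68.8%. Some of the genes stood high in the number and extent of peaks, as given below. These are descriptions without a test.

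The sequences of the starts are shown first because the H3K27ac peaks of several members broke off at the start of the gene. They are RefSeq promoters of GRCh38.p14, from 250 bases before to 50 bases after the listed start, in the direction of transcription. RefSeq promoters matched 8 of the 9 genes, with 12 starts in all, and DLX5 was not matched. Capitals mark bases inside an H3K27ac peak and lower case marks bases outside any.
DLX1, chr2:172085257-172085556, plus strand: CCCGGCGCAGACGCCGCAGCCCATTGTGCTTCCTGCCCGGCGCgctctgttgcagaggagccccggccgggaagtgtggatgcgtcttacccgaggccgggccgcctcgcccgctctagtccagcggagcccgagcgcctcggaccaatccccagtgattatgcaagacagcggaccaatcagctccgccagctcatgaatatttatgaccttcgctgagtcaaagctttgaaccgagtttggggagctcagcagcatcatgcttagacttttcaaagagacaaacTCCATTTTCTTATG
DLX2, chr2:172102851-172103150, minus strand: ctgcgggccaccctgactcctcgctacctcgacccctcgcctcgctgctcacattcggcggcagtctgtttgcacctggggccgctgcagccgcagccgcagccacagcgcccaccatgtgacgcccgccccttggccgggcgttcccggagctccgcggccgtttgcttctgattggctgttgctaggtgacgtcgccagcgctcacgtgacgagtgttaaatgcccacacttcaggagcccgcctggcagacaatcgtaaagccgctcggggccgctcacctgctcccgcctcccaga
GAD1, chr2:170816637-170816936, plus strand: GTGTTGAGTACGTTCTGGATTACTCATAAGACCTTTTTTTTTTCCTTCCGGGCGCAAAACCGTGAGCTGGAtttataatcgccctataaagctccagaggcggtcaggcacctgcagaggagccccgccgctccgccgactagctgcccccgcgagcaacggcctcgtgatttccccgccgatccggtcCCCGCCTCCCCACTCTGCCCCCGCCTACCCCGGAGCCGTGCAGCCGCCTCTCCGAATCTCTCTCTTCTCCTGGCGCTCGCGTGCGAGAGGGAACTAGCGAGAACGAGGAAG
SLC32A1, chr20:38724236-38724535, plus strand: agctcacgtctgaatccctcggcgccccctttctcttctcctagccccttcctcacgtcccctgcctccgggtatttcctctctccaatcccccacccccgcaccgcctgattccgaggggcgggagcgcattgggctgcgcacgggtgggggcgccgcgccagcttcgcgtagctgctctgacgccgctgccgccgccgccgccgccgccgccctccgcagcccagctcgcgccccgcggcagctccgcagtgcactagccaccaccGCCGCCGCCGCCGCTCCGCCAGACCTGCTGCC
NKX2-1, chr14:36520183-36520482, minus strand: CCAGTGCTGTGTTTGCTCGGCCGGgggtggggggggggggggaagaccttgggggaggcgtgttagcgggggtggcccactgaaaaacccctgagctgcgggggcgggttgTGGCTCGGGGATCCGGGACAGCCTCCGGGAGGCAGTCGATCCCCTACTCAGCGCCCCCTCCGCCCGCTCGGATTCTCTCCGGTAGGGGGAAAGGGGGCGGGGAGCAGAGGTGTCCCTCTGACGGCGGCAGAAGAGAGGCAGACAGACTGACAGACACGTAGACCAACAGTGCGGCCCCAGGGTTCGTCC
LHX6, chr9:122228384-122228683, minus strand: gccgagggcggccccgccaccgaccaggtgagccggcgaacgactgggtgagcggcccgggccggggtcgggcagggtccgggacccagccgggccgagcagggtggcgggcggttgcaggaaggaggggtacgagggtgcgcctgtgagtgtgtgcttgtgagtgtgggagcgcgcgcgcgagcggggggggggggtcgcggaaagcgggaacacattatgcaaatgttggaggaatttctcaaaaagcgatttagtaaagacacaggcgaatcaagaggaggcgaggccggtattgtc
In DLX1 the capitals stand at both ends and in SLC32A1 at the 3′ end alone, so the listed start itself falls in lower case in both. GAD1 and NKX2-1 have a lower-case stretch before the start and capitals across it. DLX2 and LHX6 have no capitals, but the nearest H3K27ac peak lies 78 bp from the DLX2 start and 35964 bp from this LHX6 start.

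Of the 8 genes with a listed start, 3 (GAD1, GAD2 and NKX2-1) had a start inside an H3K27ac peak, against 46.6% of the 15842 protein-coding genes with a listed start. A peak lay within 1 kb of a start in 7 of the 8, all but LHX6, against 65.9%. The start of DLX1 lay 36 bp before a peak with a fold enrichment of 15.5 and 208 bp after another. The start of SLC32A1 lay 18 bp before a peak and 477 bp after the next upstream peak. The start of DLX6 lay in a space with a peak 204 bp upstream and another 369 bp downstream. At DLX2 the first peak lay 78 bp downstream, and the next upstream peak was 69887 bp away. Both starts of GAD2 lay inside the same peak, which covered all 300 bases of each promoter.

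A break just before the start is common in this list. Over 22077 starts of protein-coding genes, the share inside an H3K27ac peak was 47.7% at 300 bp upstream, 34.3% at 100 bp upstream and 55.4% at 150 bp downstream. Of the 12 member starts, 7 were inside a peak at 300 bp upstream, 3 at 100 bp upstream and 8 at 150 bp downstream. The plot of peaks around the starts shows both. Member and general starts thus had the lowest of these 3 values at the same position, and nothing particular to the members is read from it.

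**Figure D1:**
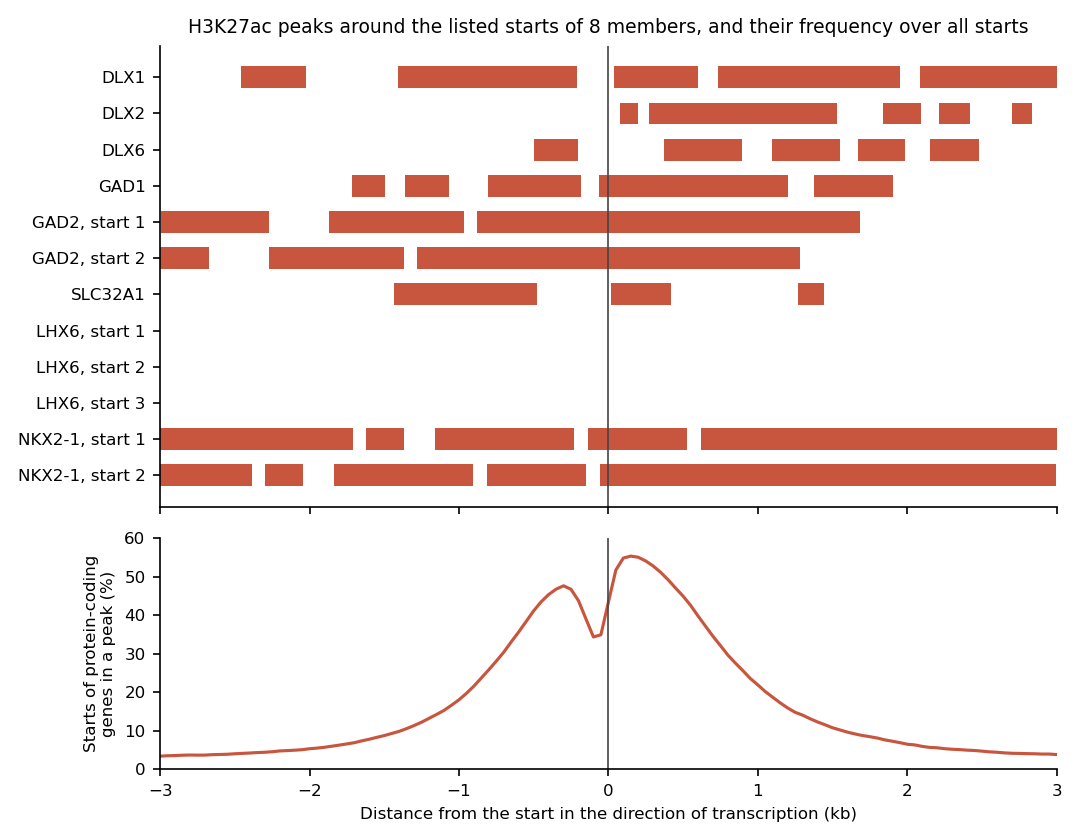
Upper panel: H3K27ac peaks (bars) within 3 kb of each of the 12 listed starts of 8 members, by distance from the start in kb in the direction of transcription. Lower panel: percent of 22077 starts of protein-coding genes that lie inside an H3K27ac peak at each distance; the curve dips to 34.3% at 100 bp upstream, where several members have a space between peaks, and the 3 LHX6 starts have no bar.

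Motif matches and CpG content of the 12 member promoters are given beside those of all promoters. A CpG ratio (observed over expected CpG) above 0.6 was found in 10 of 12 member promoters and in 62.0% of 22077 promoters of protein-coding genes. AGGNGGC, a stretch of the CTCF consensus, matched 7 of the 12 on either strand, against 41.1% of all. A CTCF peak overlapped 0 of the 12, against 20.5% of all. TAATTA, the core of many homeodomain sites, matched 1 of the 12, the second start of NKX2-1, against 3.40% of all. CANNTG, the E-box bound by bHLH factors, matched 5 of the 12, against 65.1% of all, and TATAAA matched 2 of the 12 (GAD1 and 1 start of LHX6), against 9.50%. A match describes the letters and does not show a bound site.

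The shared window of DLX1 and DLX2 held the highest H3K27ac peak of the 4 DLX genes, although the highest value inside DLX2 itself, 4.63, was below those inside DLX1, DLX5 and DLX6. DLX1 lies on chromosome 2 from 172085507 to 172089674 and DLX2 from 172099438 to 172102900. The highest peak of the locus was in neither gene: it ran from 172093890 to 172097561, between them, with a width of 3672 bp, a fold enrichment of 16.3 and percentile 90.02 of the list. Here and below, fold enrichment is the authors' value at the peak, read as such from its values and the layout of the list, over a background that is not stated, and a percentile is the share of the list's peaks with a lower value. Of the 70 H3K27ac peaks in all windows, this was the only peak at or above percentile 90.

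Inside DLX1, 4 peaks had fold enrichments of 15.5, 8.13, 7.77 and 4.28, in order from the start. Another of 12.1 ended 208 bp before the gene. Inside DLX2, 5 peaks had fold enrichments of 3.09, 4.63, 3.64, 4.03 and 2.40, by rising position. All 5 in DLX2 were below the list median of 4.74, whereas 3 of 4 in DLX1 were above it. The values within the DLX2 gene were thus below most of those at DLX1.

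Between the ends of DLX1 and DLX2 lie 9763 bp, of which H3K27ac peaks covered 7546 bp (77.3%). The 6 peaks there had fold enrichments of 5.01, 6.17, 7.04, 16.3, 5.93 and 1.80, by rising position. The last of these had a −log10 q of 0.29, a q-value above 0.05. Of the 21 peaks in the DLX1 window, 4 overlapped the neighbouring gene METAP1D, with fold enrichments of 4.37 to 6.23.

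DLX5 and DLX6 had a similar number of peaks with lower values. DLX6 lies on chromosome 7 from 97005553 to 97011040 and DLX5 from 97020396 to 97024831. The highest peak, from 97005922 to 97006449, lay in DLX6 721 bp after its start, by summit, and had a fold enrichment of 9.04 (percentile 77.9). All 16 H3K27ac peaks of the locus lay between 2.49 and 9.04, with a median of 3.80, against 1.80 to 16.3 with a median of 5.07 over the 21 at DLX1 and DLX2.

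Inside DLX6 the 7 peaks had fold enrichments of 9.04, 6.24, 3.46, 3.38, 4.74, 3.08 and 3.51, from the start onward. Inside DLX5 the 3 peaks had 3.78, 4.26 and 5.70, by rising position. Between the genes, 9355 bp held 4 peaks with fold enrichments of 3.51, 7.59, 5.77 and 3.82, of which the first also reaches into DLX6. They covered 3344 bp, or 35.7% of the stretch, compared with 77.3% between DLX1 and DLX2. The peaks in DLX6 also overlapped DLX6-AS1, a long non-coding RNA gene on the same stretch, and H3K27ac cannot be assigned to either gene.

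NKX2-1 had the largest acetylated share of the 9 windows. It lies on chromosome 14 from 36516397 to 36520232, and 16 peaks covered 18.6 kb, or 42.4%, of its window of 43.8 kb. Only 2 peaks overlapped the gene, a peak of 3047 bp with a fold enrichment of 12.7 and a peak of 665 bp with 11.1. The highest of the window lay just outside, from 36520459 to 36521393, with a fold enrichment of 13.9 (percentile 87.3). Peaks of 13.6 and 13.3 lay 15.8 and 14.6 kb downstream of the most upstream start, in SFTA3, a neighbouring gene. The peaks in NKX2-1 also overlapped NKX2-1-AS1, an antisense RNA gene, so the mark cannot be assigned to either. Acetylation thus extended over both sides of NKX2-1, in a chain that ran from 36501885 to 36524738. The next H3K27ac peak of the list on the higher-coordinate side lay 645.9 kb beyond the strongest CTCF peak of the window.

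GAD1 and GAD2 carried H3K27ac near their starts and little of it along the gene. GAD1 lies on chromosome 2 from 170813210 to 170861151. All of its 7 H3K27ac peaks lay between 170813159 and 170818795, at the low-coordinate end of a gene of 47.9 kb, with fold enrichments of 2.69, 5.23, 3.68, 4.75, 7.40, 11.0 and 3.86 by rising position. The highest, from 170816826 to 170818089, covered the listed start. The weakest had a −log10 q of 1.05, a q-value above 0.05.

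GAD2 lies on chromosome 10 from 26216372 to 26304558. The peaks in the gene had values of 9.40, 3.65 and 5.45 by rising position, and that of 9.40 was 2569 bp wide and covered the start. A peak of 10.9 lay upstream, 1.45 kb from the start by summit, and a peak of 4.50 lay 2.43 kb upstream. The peaks of 3.65 and 5.45 lay 75.2 and 75.6 kb from the start. No H3K27ac peak was listed between GAD2 and PDSS1, 392.5 kb beyond the end of the gene.

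Within the gene interval, SLC32A1 had the lowest maximum of the 8 genes with peaks. It lies on chromosome 20 from 38724486 to 38729372, and the peaks that overlapped it had fold enrichments of 3.96 and 2.25, both below the list median. The second had a −log10 q of 0.82, a q-value above 0.05. Upstream of the start, by summit, lay peaks of 5.81 at 735 bp and of 4.14 at 10.1 kb. The highest value in the window, 13.7, belonged to a peak that overlapped the neighbouring gene ACTR5, 23.8 kb from the SLC32A1 start, so the rank of the window's highest value does not describe SLC32A1 itself.

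LHX6 was the exception. It lies on chromosome 9 from 122202582 to 122228957, and neither list had a peak in its window of 66.4 kb. Of all protein-coding genes, 9.46% had no peak of either list in their window. The nearest H3K27ac peaks overlapped NDUFA8 42.8 kb on the lower-coordinate side (fold enrichment 12.1) and RBM18 and MRRF 35.4 kb on the higher-coordinate side (fold enrichment 13.7). The space between them was 104.6 kb, longer than 91.4% of the spaces between neighbouring H3K27ac peaks, whose median was 3.57 kb. In the CTCF list the space was 105.8 kb, longer than 81.7% of spaces, with peaks of signal value 104 and 21.6 at its ends. A space that holds an empty window of 66.4 kb is long by construction, so these ranks are no further evidence about LHX6. The sequencing depth is unknown, and acetylation below the authors' threshold would not be listed.

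**Figure D2:**
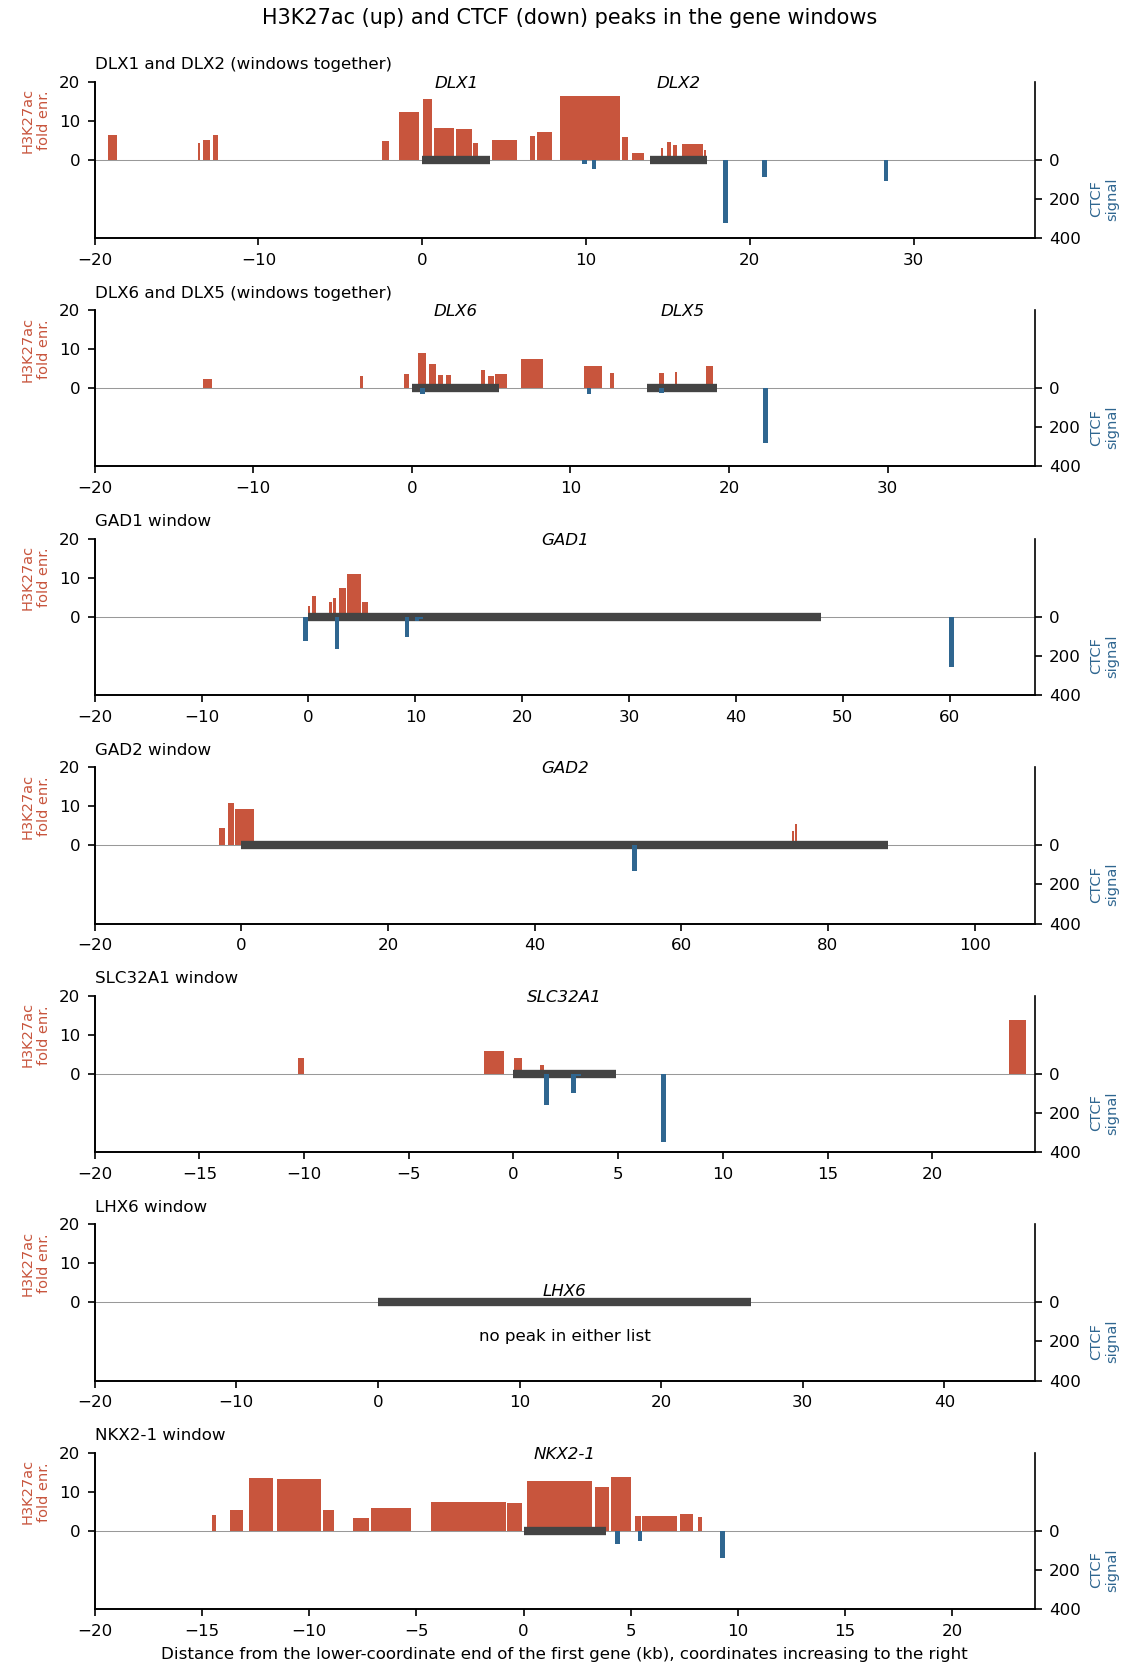
Maps of the 7 loci, with distance in kb from the lower-coordinate end of the first gene on the x axis and gene bodies as dark bars. Red bars upward are H3K27ac peaks at their width (fold enrichment, left axis) and blue bars downward are CTCF summits (signal value, right axis); red fills much of the DLX1 and DLX2 and NKX2-1 windows, the GAD1 peaks sit at the low end of the gene, and LHX6 is empty.

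Set against all protein-coding genes, the DLX genes and NKX2-1 ranked high by number and extent of peaks but not by height. The share of the window covered by H3K27ac was 35.4% at DLX1, 32.6% at DLX2, 16.1% at DLX5, 17.1% at DLX6 and 42.4% at NKX2-1. These stood at percentiles 99.9, 99.8, 97.2, 97.6 and 99.9 of all protein-coding genes, whose median was 2.29%. The same windows' highest fold enrichments stood at percentiles 54.9, 54.9, 35.9, 35.9 and 48.9, with a median of 14.3 over all genes. Neighbouring windows share peaks, so DLX1 and DLX2 are not separate observations, nor are DLX5 and DLX6. A high covered share was not particular to the members, as given below for neural progenitor genes.

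For GAD1, GAD2 and SLC32A1 the covered share was 3.93%, 3.66% and 5.77%, at percentiles 67.2, 64.8 and 78.8. Their highest fold enrichments of 11.0, 10.9 and 13.7 stood at percentiles 40.9, 40.6 and 48.4. A window holds 40 kb of flank whatever the length of the gene, so ranks were also taken among genes whose window was within 20% of the same length. There the number of H3K27ac peaks stood at percentile 99.9 for DLX1, 99.6 for DLX2, 98.9 for DLX5, 99.3 for DLX6 and 99.4 for NKX2-1. It stood at 79.5 for GAD1, 58.7 for GAD2 and 71.8 for SLC32A1. By the number of peaks the transcription factor genes with peaks stood above GAD1, GAD2 and SLC32A1 in both rankings, and by covered share among all genes as well. By highest fold enrichment among all genes they did not, since DLX5 and DLX6 stood below GAD1 and GAD2. They also stood below SLC32A1, but the highest value of that window came from the peak that overlapped ACTR5. The peaks that overlapped SLC32A1 itself reached only 3.96.

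As a set, the 70 H3K27ac peaks of the members were of ordinary height. Their median fold enrichment was 4.88, beside 4.74 in the whole list, and 34 of the 70 lay under percentile 50. Their median width was 528 bp, beside 356 bp in the whole list. A width of 2 kb or more was found in 5 of the 70 (7.14%), beside 4.44% of the list. The 95% Wilson interval, 3.09 to 15.7% from counting error only, holds the list's share. Peaks of a locus are not independent, so the interval is no test. A q-value of 0.05 or more was listed for 4 of the 70 (5.71%), beside 6.92% of the list.

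**Figure D3:**
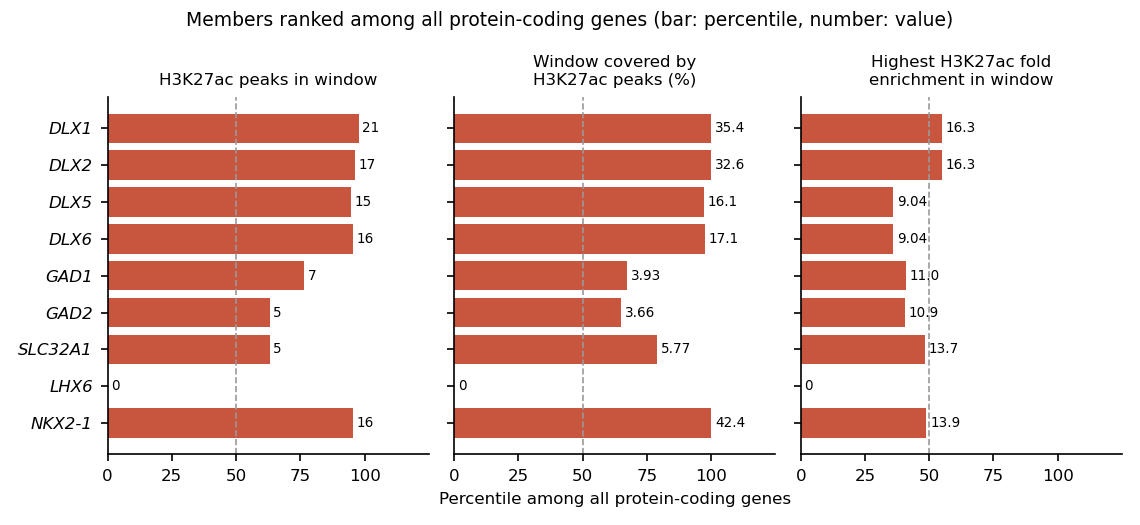
Percentile of each member among 20033 protein-coding genes (bars, x axis; dashed line at 50) for the number of H3K27ac peaks, the percent of the window covered and the highest fold enrichment, with the value printed beside each bar. The DLX genes and NKX2-1 are near the top in the first and second panels and near the middle in the third; LHX6 has no bar.

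CTCF was also listed at 8 of the 9 genes in the window, against 82.7% of all protein-coding genes, and inside 5 of the 9 gene intervals, against 55.4%. Both shares were close to the background. The 23 CTCF peaks had signal values from 9.23 to 346, on the authors' scale, with a median of 95.8 beside 91.0 in the whole list. Of these, 8 had the width of 800 bp that recurs in 33.4% of the list, and these 8 had signal values from 9.23 to 53.5. The 15 of other widths ran from 49.2 to 346.

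The strongest CTCF peak of a locus lay outside the member genes in 5 of the 6 loci that had any, and overlapped H3K27ac in 0 of the 6. Over the 16575 protein-coding genes with a CTCF peak in the window, the strongest lay outside the gene in 58.5% and overlapped H3K27ac in 34.5%. With 6 loci, set beside shares counted per gene, these are descriptions. At DLX1 and DLX2 it ran from 172103778 to 172104260 in DLX2-DT, a non-coding gene beside DLX2, with a signal value of 325 (percentile 97.6) and its summit 1.12 kb upstream of the DLX2 start. At DLX6 and DLX5 it ran from 97027601 to 97028084, 3.01 kb beyond DLX5 by summit, with a signal value of 282 (percentile 93.5). At both loci every H3K27ac peak of the windows, 21 and 16, lay on the lower-coordinate side of that CTCF peak. The same held for the 7 peaks at GAD1 and the 16 at NKX2-1, while 3 lay below and 2 above at GAD2, and 4 below and 1 above at SLC32A1. All H3K27ac peaks were thus on 1 side in 4 of the 6 loci. Of the 7111 protein-coding genes with a CTCF peak and 5 or more H3K27ac peaks in the window, 22.4% had this. That share counts each gene by its own window, whereas paired DLX genes count as 1 locus, so the units differ. The next H3K27ac peak on the other side was 68.5 kb away at DLX1 and DLX2, 89.0 kb at DLX6 and DLX5 and 645.9 kb at NKX2-1. At GAD1 the nearest H3K27ac peaks lay 54.4 kb below and 54.5 kb above that CTCF peak. The 1-sided count at GAD1 therefore depends on where the window ends.

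SLC32A1 had the highest CTCF value of all members, 346 (percentile 98.8), in a peak from 38731384 to 38731916 that lay 2.29 kb beyond the gene by summit. The strongest peak at GAD1 had a signal value of 257 (percentile 89.9) and lay 12.3 kb beyond the gene. Those at NKX2-1 and GAD2 were lower, at 138 (percentile 65.0) and 133 (percentile 63.4). The GAD2 peak was the only CTCF peak of its window and lay in the gene, 53.6 kb from the start. The scale of the signal value is not stated, so only ranks within the list were read.

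Of the other 17 CTCF peaks, which are by definition the weaker ones of their loci, 9 overlapped an H3K27ac peak. Between DLX1 and DLX2, CTCF peaks with signal values of 23.5 and 49.2 lay in the broad H3K27ac peak described above. Beyond DLX2, peaks of 88.5 and 107 lay 3504 and 10920 bp upstream of its start, without H3K27ac. At DLX6 and DLX5 the 3 weaker peaks, with signal values of 29.8, 27.1 and 26.4, each had the width of 800 bp and each overlapped H3K27ac.

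GAD1 had weaker CTCF peaks of 124, 166, 103, 22.9 and 10.2 by rising position, of which the peak of 166, 999 bp upstream of the listed start, overlapped H3K27ac. SLC32A1 had peaks of 157, 9.23 and 95.8 inside the gene, and the first of these overlapped H3K27ac. NKX2-1 had peaks of 66.7 and 53.5, which lay 545 and 1598 bp upstream of its most upstream start, and both overlapped H3K27ac. The lowest values at GAD1 and SLC32A1, 10.2 and 9.23, had q-values of 0.92 and 0.985. In all, 9 of 23 CTCF peaks (39.1%) overlapped H3K27ac, beside 28.1% in the whole list. The 95% Wilson interval, 22.2 to 59.2% from counting error only, holds the list's share. Peaks of a locus are not independent, so the interval is no test. With overlapping CTCF entries merged, the share was 9 of 21 (42.9%). The 9 that overlapped had a median signal value of 49.2, and the 14 that did not had 115. The order was the same in the whole list, at 73.2 and 97.0. By the highest CTCF value in the window, SLC32A1 stood at percentile 95.9 of all protein-coding genes, DLX1 and DLX2 at 92.6, DLX5 and DLX6 at 81.9, GAD1 at 74.2, NKX2-1 at 43.3 and GAD2 at 41.8.

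The lists of related genes were described in the same way, by the highest H3K27ac fold enrichment in the window. Each count of genes with a peak is to be read beside the 81.1% of all protein-coding genes that had one. All 8 genes of GABA synthesis, transport and breakdown had an H3K27ac peak, with a median highest value of 12.3. The highest was ABAT, which breaks down GABA, at 30.3. The lowest were SLC6A13 at 3.17 and SLC6A11 at 6.68, both GABA transporters. GAD2 at 10.9 and GAD1 at 11.0, both members, stood just above those.

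Of 25 transcription factors of the ganglionic eminences and of interneurons, 23 had a peak and the median was 14.4, beside 14.3 over all protein-coding genes. LHX6 and LHX8, a related LIM homeobox gene of the medial ganglionic eminence, had none. The highest were NR2F2 at 42.7 and NR2F1 at 36.3, nuclear receptors of the caudal ganglionic eminence that other neural cells express as well. The list holds 6 of the members, and the 5 with a peak (DLX1, DLX2, DLX5, DLX6 and NKX2-1) lay between 9.04 and 16.3. By covered share, NR2F1 (45.4%) and NR2F2 (43.3%) were the list's only genes above NKX2-1 (42.4%).

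Of 18 glutamatergic identity genes, 14 had a peak and the median was 6.70. NEUROD2, NEUROD6, EMX1 and EOMES had none, and the highest was SLC17A7 at 34.0, in a window where no peak overlapped the gene itself. The 9 members had a median of 11.0, and all lists were chosen with earlier results of these data known, so their order is a description. Lists bearing on the label of the cells were described in the same way. All 12 pan-neuronal genes had a peak, with a median of 17.9, from RBFOX3 at 5.96 and NEFL at 8.38 to SYN1 at 46.4 and GAP43 at 47.0. All 11 neural progenitor genes had a peak as well, with a median of 35.3, from PAX3 at 7.65 and SOX9 at 13.0 to SOX1 at 43.9 and MSI1 at 50.3. The median covered share of their windows was 19.4%, with SOX2 at 60.2%, beside 16.1% over the 9 members. In each other list that median was at most 4.26%. Astrocyte genes had a peak in 7 of 8, with a median of 17.4, from AQP4 with none and ALDOC at 8.12 to GJA1 at 30.4 and GFAP at 62.8. By median height, the pan-neuronal list stood below the progenitor list and near the astrocyte list, so these values do not establish the label. The part of progenitors or glia in the acetylation of the members was not tested.

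**Figure D4:**
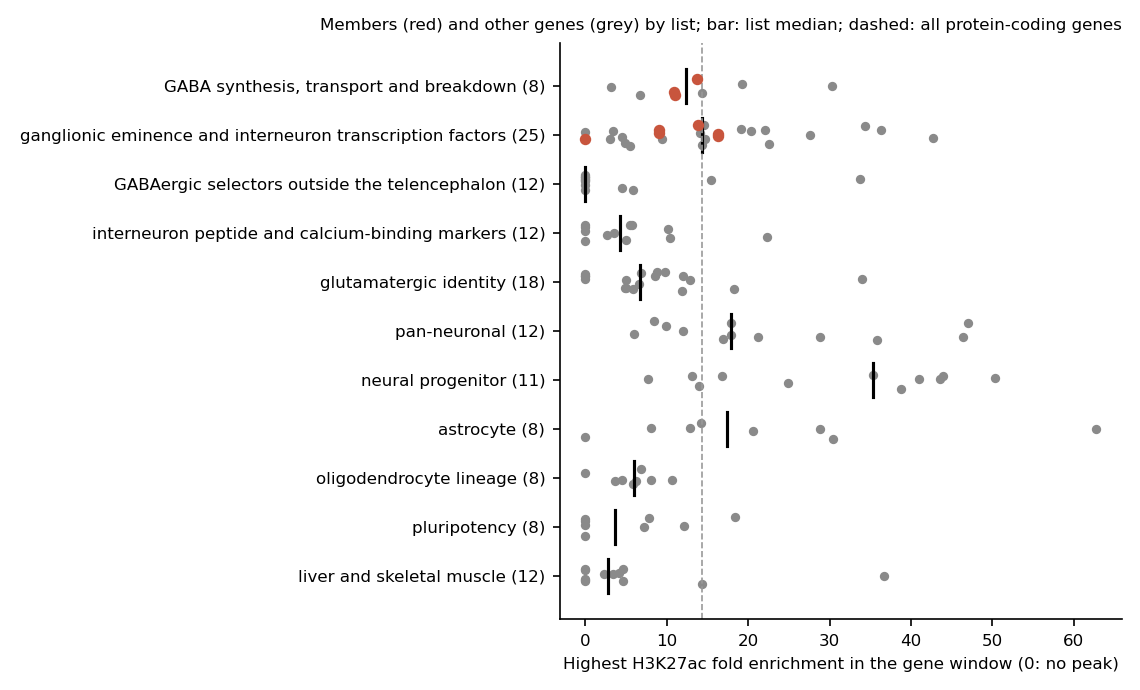
Highest H3K27ac fold enrichment in the window of each gene (x axis, 0 where no peak), by gene list with the number of genes in brackets; red points are members, grey points other genes, black bars list medians, and the dashed line the median of 14.3 over all protein-coding genes. Members lie at 0 (LHX6) and between 9.04 and 16.3, below the median of 35.3 of the neural progenitor list.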

How the data were processed

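ChIP-seq libraries for CTCF (2), H3K27ac (2) and input (2) were grouped by their titles. Chromatin was cross-linked with formaldehyde and sheared by sonication, per the labels' protocols. Per the submitters' processing notes, the build was hg38 and cutadapt 1.16 was used. The aligner, the peak caller and its settings are not given in the sources used here. The deposited CTCF list holds a signal value on an unstated scale, the deposited H3K27ac list holds a fold enrichment (a ratio, read as such from its values and the layout of the list), and both deposited lists hold −log10 q values and a score, which was not used. Per the labels, each list covers both libraries, so depth and replicate error are unknown and no test was run. Input libraries, signal tracks and single-library values were not analysed here.

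Gene intervals and names came from RefSeq (GRCh38.p14), for 20033 protein-coding genes on the numbered chromosomes, X and Y. All 134 genes of 11 comparison lists were matched, 1 of them by an older symbol. Overlap meant at least 1 bp. Overlap counting was checked on simulated intervals against bedtools 2.31.1. Analysis used Python 3.11.15, pandas 2.3.3 and scipy 1.17.1. Positions are 1-based. The members, lists, motifs and tests were chosen with earlier results of these data known. Named were all 9 members, every CTCF peak, each H3K27ac peak in a member or between paired DLX genes, and the 2 highest and 2 lowest genes per list, with up to 4 genes without a peak. Some genes that this rule names are not reported here. Other genes, the ranks among genes of similar window length, and the shares over all genes or promoters for the strongest CTCF peak and for CTCF at promoters, were added after seeing the values. Starts were analysed for the 8 members with a listed start. Alternatives were window size, summit position, q-value, peak strength, the 800 bp width, merged CTCF entries and the definition of overlap.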

Additional observations from a re-analysis of the deposited data

How the results depend on the processing

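No paired analysis was possible because each list covers both libraries of an antibody and holds no values of single libraries; leaving out each library could not be run for the same reason. Of 77 alternative values, 58 stayed within 1.5 times the count, within the Wilson interval or at the same value, and 19 moved. The Wilson intervals of such small counts are wide, for example 56.5 to 98.0% for 8 of 9 genes. A share that stayed within its interval therefore says little about stability. Apart from the result for starts given below, a reversal of direction was not looked for. The cause of a move was not tested unless the alternative itself sets it. Without flanks, the H3K27ac peaks fell from 70 to 33 and the CTCF peaks from 23 to 10, the median of the highest H3K27ac value was 9.04 (11.0 with 20 kb) and that of CTCF 26.4 (282 with 20 kb), and CTCF was in 55.6% of the genes (88.9% with 20 kb). With 5 kb the medians were 10.9 and 133. With 50 kb the H3K27ac median was 13.7 and both shares of genes with a peak were 100%, since the LHX6 window then reached its neighbours' peaks. The shares over all protein-coding genes with 50 kb were not computed, so the 100% is not read as a result about the members. The 50% of peaks with the highest values left 36 H3K27ac and 12 CTCF peaks and lowered the overlap from 39.1% to 8.33%. The share of the whole list at that setting was not computed. Without the 800 bp width, 15 CTCF peaks were left. A peak within 1 kb of a start, in place of over it, raised the share of genes from 37.5% to 87.5%. Over all protein-coding genes with a listed start these shares were 46.6% and 65.9%, so the members went from below to above. Among the lists, gene intervals without flanks gave 33.3% for interneuron peptide and calcium-binding markers. They gave 50% for the oligodendrocyte lineage and 16.7% for liver and skeletal muscle. These shares are to be read beside 68.8% of all protein-coding genes. The strongest 50% of peaks also gave 16.7% for liver and skeletal muscle, and the share over all genes at that setting was not computed. LHX6 gained peaks with 50 kb. With 20 kb it had none under any filter on peaks, which was fixed in advance, since a filter only removes peaks. Depth limits the absence of weak peaks.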

Other observations

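Selectors of GABAergic fate outside the telencephalon, the part of the forebrain that holds the ganglionic eminences, were mostly without H3K27ac in these lists. Of 12 such genes, 4 had a peak in the window, against 81.1% of all protein-coding genes. The median of the highest fold enrichment was 0, beside 14.3 over all protein-coding genes. LHX1 at 33.7 and PAX8 at 15.5 were the highest, and GATA2 and GATA3 were among the 8 without a peak. GATA2 and GATA3 had CTCF peaks in the window, with highest signal values of 166 and 217.

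Markers of mature interneuron classes had H3K27ac in some cases. Of 12 genes for peptides, calcium-binding proteins and related markers, 8 had a peak in the window (66.7%), against 81.1% of all protein-coding genes. The 95% Wilson interval, 39.1 to 86.2% from counting error only, holds the 81.1%. Genes are not replicates, so the interval is no test. A peak in the gene itself was listed for 4 of the 12, against 68.8% of all protein-coding genes. SST, VIP, NPY and PENK had none in the window, and the highest were NOS1 at 22.3 and TAC3 at 10.4, the latter from a peak outside the gene. The median was 4.28, beside 14.3 over all protein-coding genes. Genes of the oligodendrocyte lineage had a peak in 7 of 8 windows, from OLIG2 with none to MBP at 8.004 and SOX10 at 10.6, with a median of 6.03. Pluripotency genes had a peak in 4 of 8 windows, with a median of 3.59. NANOG, TDGF1, ZFP42 and L1TD1 had none, and the highest were DNMT3B at 18.4 and LIN28A at 12.1. Liver and skeletal muscle genes had a peak in 7 of 12 windows, with a median of 2.81. ALB and CYP3A4 were among the 5 without, and the highest were F2 at 36.7 and TNNT3 at 14.3, both from peaks outside the gene.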
